A study of Mus musculus with 59 samples.

Results

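The comparison described here is that of hippocampal gene expression between APOE4 and APOE3 female mice that were 15 months old and cycled irregularly (15M-Irreg). Members were the libraries that the labels place in these groups, which gave 7 APOE4 and 7 APOE3 libraries, 14 of 59 in the series, each from 1 labelled sample. The series covered a model of the menopausal transition and, per the study's methods, used a separate cohort of mice at each age. The stages ran from regular cycling at 6 months (6M-Reg) through regular and irregular cycling at 9 months (9M-Reg, 9M-Irreg) to irregular cycling and acyclicity at 15 months (15M-Irreg, 15M-Acyc). Both groups were homozygous for a human allele placed at the mouse Apoe locus (hAPOE4/hAPOE4 or hAPOE3/hAPOE3). Both genotypes were bought from a supplier, the APOE4 mice as homozygotes and the APOE3 mice as heterozygotes that were then bred to homozygosity, so that allele and breeding line cannot be told apart in any comparison of these groups. Nothing in the labels says that samples share an animal or a litter, and p-values measure the spread between these samples.

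Apolipoprotein E carries cholesterol and phospholipid between brain cells and is made mainly by astrocytes and, when they are activated, by microglia. The APOE4 allele is the strongest common genetic risk factor for late-onset Alzheimer's disease, and mouse and human work has linked it to altered lipid handling, microglial state and mitochondrial function. The question for this stage was which functions and cell types of the hippocampus differed between genotypes late in the transition, when cycles had become irregular but had not stopped.

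Of 18584 genes tested with edgeR's quasi-likelihood test across all 59 libraries, 2 passed a Benjamini-Hochberg adjusted p of 0.05, which is 0.0108% of the genes tested. H2ac20, a gene for the core histone H2A, rose in APOE4 (adjusted p = 0.00358). Ndn, which codes for necdin, an imprinted growth suppressor of neurons expressed from the paternal allele, fell by 0.65 on the log2 scale (SE 0.12, adjusted p = 0.0105, lower than the APOE3 mean in 7 of 7 APOE4 libraries). At an unadjusted p of 0.05, 921 genes were counted, or 4.96% of those tested, about what this threshold gives where no gene differs. Of these, 419 were higher in APOE4 (2.25%) and 502 were lower (2.7%). The median log2 fold change of all genes was 0.0016, and 50.8% lay above 0.

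The fit was precise enough to bound most genes. The median standard error of a log2 fold change was 0.09, and for 73.8% of the genes tested the 95% interval lay within 0.5 log2 units of 0, that is, within a 1.41-fold difference in either direction. Among the 15014 genes with a mean level of at least 1 CPM (counts per 1e6 counts), that share was 90.0%.

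**Figure D1:**
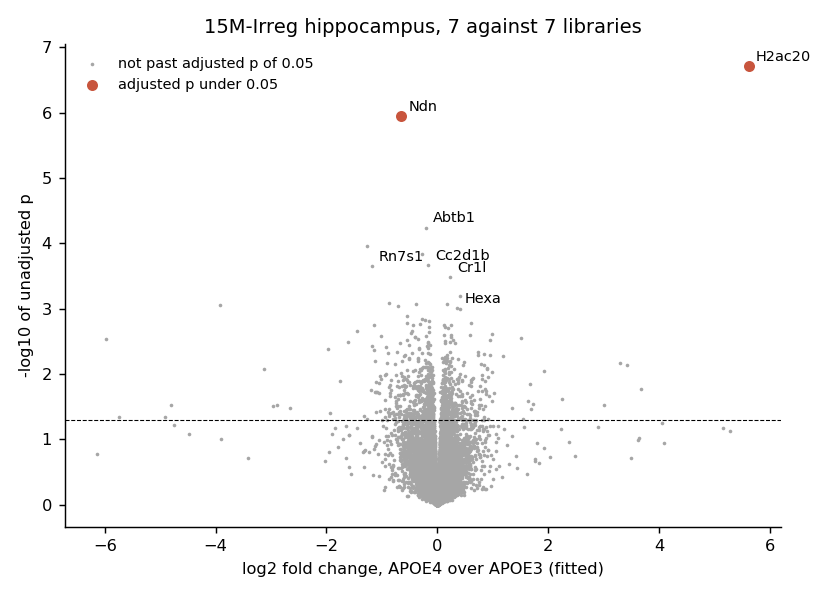
Fitted log2 fold change of APOE4 over APOE3 at 15M-Irreg (x axis) against -log10 of the unadjusted p (y axis) for the 18584 genes tested, 7 libraries a group. The dashed line is an unadjusted p of 0.05. H2ac20 and Ndn, in red, stand above all other genes; the fitted value of H2ac20 is not a measured fold, since APOE3 libraries hold at most 2 reads of it.

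H2ac20 is a short intronless histone gene of the cluster on chromosome 3 (GRCm38 3:96220361-96220880, minus strand, protein coding), and its messenger resembles those of its neighbours H2ac18 and H2ac19 so closely that reads can be shared among them. The coding ends of all 3 genes are given here because they show how little tells H2ac20 from its copies, and they hold the codon that H2ac20 lacks. They are printed 5′ to 3′ from GENCODE M21 transcripts, from coding base 331 to the stop codon, with capitals at bases that are not common to all 3.
H2ac20: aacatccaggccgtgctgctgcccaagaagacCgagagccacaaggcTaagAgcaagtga
H2ac18: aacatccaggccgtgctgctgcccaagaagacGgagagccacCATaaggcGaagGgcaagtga
H2ac19: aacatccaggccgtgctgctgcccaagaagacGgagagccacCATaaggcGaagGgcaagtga
Over its 390 coding bases H2ac20 differed from either copy at 11 bases and lacked 1 codon, an identity of 97.2%, and its longest stretch identical to them was 113 bases. H2ac18 and H2ac19 did not differ from each other at any coding base. Of the 490 different 31-base words in the H2ac20 transcript, 212 also occur in each copy.

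H2ac20 was all but undetected in APOE3, where the libraries held 0 to 2 counts each, or 0 to 0.0718 CPM with a median of 0.0351. In APOE4 it was 1.244, 2.54, 1.363, 2.42, 0, 1.95 and 1.10 CPM in replicates 1 to 7. Thus 6 of 7 APOE4 libraries lay above every APOE3 library, while replicate 5 had no count, so the groups overlapped. The APOE4 mean of 1.52 ± 0.877 CPM (SD, n = 7) was at least 13.7-fold higher than the level of 3 counts per library, which is 0.111 CPM in the APOE3 libraries.

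H2ac20 counts were a small part of what its copies held. In the transcript estimates, H2ac18 was 43.1 ± 7.65 TPM (transcripts per 1e6 transcripts; SD, n = 7) in APOE3 and 36.2 ± 6.04 in APOE4, and H2ac19 was 51.8 ± 14.1 and 40.2 ± 16.4 TPM. H2ac20 was 0.153 ± 0.166 and 9.06 ± 5.27 TPM. Summed over the 3 genes, counts came to 12.8 to 20.4 CPM with a median of 18.8 in APOE3 and to 12.3 to 18.96 CPM with a median of 15.7 in APOE4, so the sums overlapped almost wholly. H2ac20 took 0 to 0.457% of that sum in APOE3 libraries and 0 to 16.2% in APOE4 libraries. H2ac18 (log2 fold change -0.23, SE 0.21) and H2ac19 (-0.34, SE 0.23) did not pass the test, each at an adjusted p of 0.979. How reads divide among these copies is estimated and not counted, and its part in the result was not tested.

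**Figure D2:**
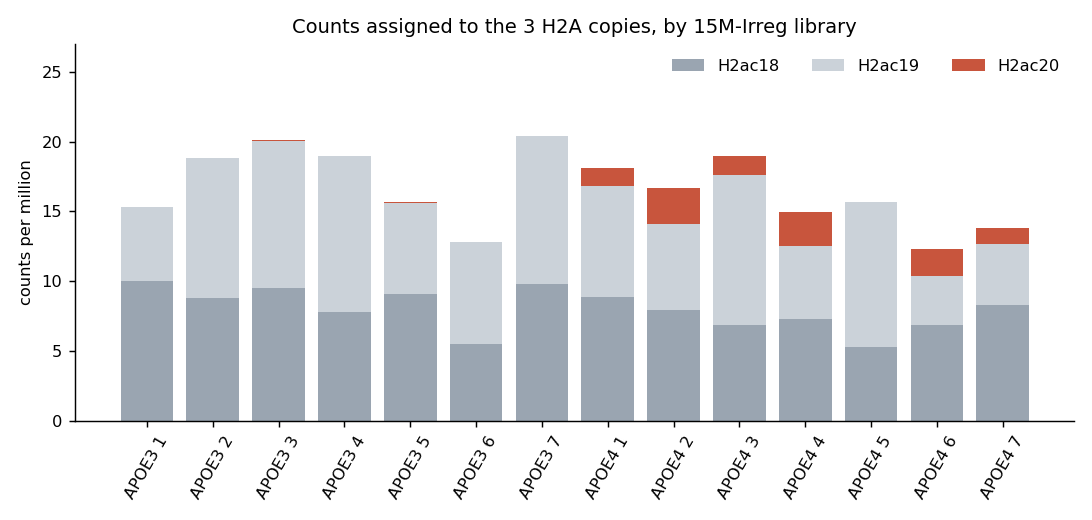
CPM assigned to H2ac18, H2ac19 and H2ac20 in each 15M-Irreg library, stacked, with APOE3 replicates 1 to 7 on the left and APOE4 replicates 1 to 7 on the right. H2ac20 (red) is visible in 6 of 7 APOE4 libraries and missing in replicate 5, and the stacks reach 12.8 to 20.4 CPM in APOE3 and 12.3 to 18.96 CPM in APOE4.

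Ndn lies in the imprinted region on chromosome 7 that corresponds to the human Prader-Willi locus (GRCm38 7:62346569-62350262, plus strand). Of 10 tested genes of that region, 3 lay above 0, beside 50.8% of all genes, and the median log2 fold change was -0.04. Ndn was the 1 member with an unadjusted p under 0.05, beside 2.7% of all genes lower at that p. Its level in APOE4 was 114, 119, 121, 110, 110, 120 and 107 CPM in replicates 1 to 7. In APOE3 it was 192, 120, 114, 219, 183, 226 and 201 CPM. The APOE4 libraries were thus tightly grouped (114 ± 5.67 CPM, SD, n = 7), whereas APOE3 fell into 5 libraries between 183 and 226 CPM and 2, replicates 2 and 3, that lay inside the APOE4 range (179 ± 45.2 CPM over all 7). Per transcript length the level was 58.1 ± 3.44 TPM in APOE4 and 89.8 ± 22.6 TPM in APOE3.

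The call on Ndn was made with the spread estimated over all 59 libraries. Fitted on the 14 libraries alone, the log2 fold change was the same, -0.65, with an adjusted p of 0.863. Without APOE3 replicate 4, APOE3 replicate 6 or APOE4 replicate 7 the adjusted p was 0.0597, 0.0890 or 0.0543. APOE3 replicates 2 and 3, whose Ndn was low, also stood apart in markers of neighbouring brain regions, given further on. With those libraries and APOE4 replicate 6 left out together, the log2 fold change of Ndn was -0.84 (adjusted p = 1.3e-05). The APOE3 libraries left out held the lowest Ndn of their group, so their removal itself widened the difference and this value is no further support. The value of H2ac20 then missed the threshold (adjusted p = 0.0845).

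Both genes were also measured at the other stages, where the same fit called 0.0108% of genes in 6M-Reg mice, 0.0108% for 9M-Reg, 0.00538% for 9M-Irreg and 0.0161% for 15M-Acyc. Ndn was lower in APOE4 by 0.87 on the log2 scale in the 6M-Reg mice (log2 fold change -0.87, adjusted p = 0.000149), and APOE3 libraries ranged from 210 to 236 CPM. In the 9M-Reg mice its log2 fold change was -0.91 (adjusted p = 0.000122), with APOE3 between 198 and 231 CPM. In 9M-Irreg mice it was -0.77 (adjusted p = 0.00275), and the lowest APOE3 library, at 130 CPM, lay far from the APOE3 median of 214 CPM. In 15M-Acyc mice it was again -0.77 (adjusted p = 0.0316), with the lowest of 3 APOE3 libraries at 111 CPM. H2ac20 was at or below 3 counts in every APOE3 library of every stage, so only APOE4 libraries carried it past the filter on low counts. Its APOE4 median was 0.832 CPM for 6M-Reg, with 3 of 6 libraries at or below 3 counts, and the adjusted p was 0.00399. The median was 2.12 CPM for 9M-Reg (adjusted p = 0.00173). It was 1.58 CPM for 9M-Irreg, where 1 of 6 libraries was at or below 3 counts, and 1.04 CPM for 15M-Acyc, and neither passed the adjusted threshold (0.0638 and 0.164).

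**Figure D3:**
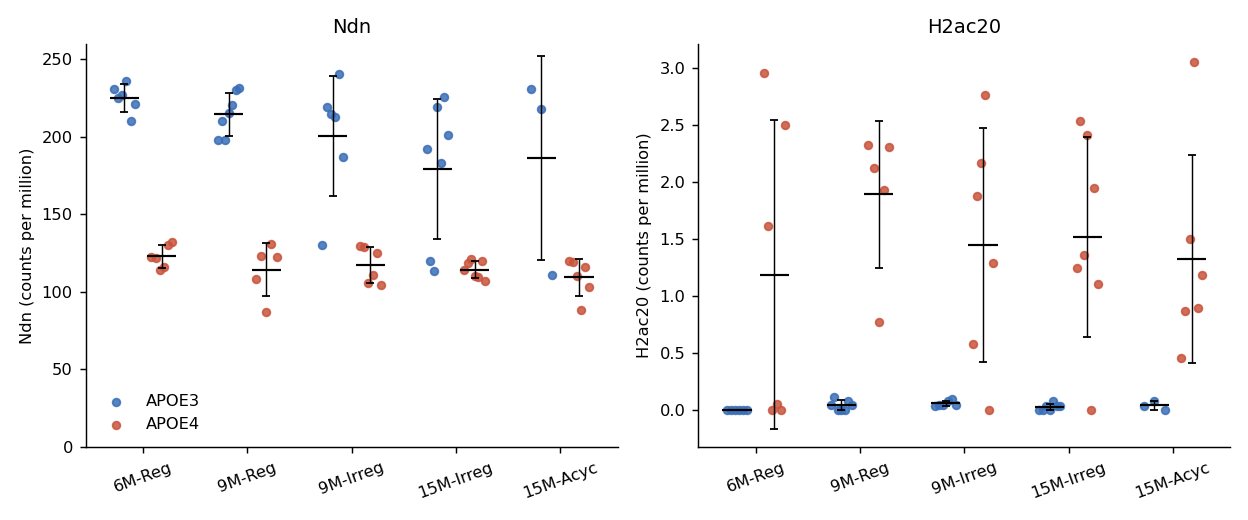
Level of Ndn (left) and H2ac20 (right) in CPM in each library at 5 stages, APOE3 in blue and APOE4 in red; bars give the mean and SD. In the oldest irregular group, 2 APOE3 libraries lie at the APOE4 level of Ndn, and 1 APOE4 library lies at 0 for H2ac20.

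The genotype difference at 15M-Irreg was also set against that at 2 related stages by interaction contrasts. Against 9M-Irreg, edgeR called 0 genes at an adjusted p of 0.05 and counted 1027 at an unadjusted p of 0.05 (5.53%), and DESeq2 called 0 and counted 1047. limma called 1 and counted 982, and edgeR with the authors' factors as offsets called 1 and counted 983, the gene being Cc2d1b in both. Against 15M-Acyc, edgeR called 0 and counted 951 (5.12%). DESeq2 called 0 and counted 969, limma 0 and 943, and edgeR with offsets 0 and 988. For Ndn the difference between the 15M-Irreg and 9M-Irreg effects was 0.12 on the log2 scale (SE 0.17, adjusted p = 0.981). Of the 921 genes counted, 5.86% also had an unadjusted p under 0.05 in the same direction in 6M-Reg mice, against 5.16% of all 18584 genes with such a p on the matching side (10% on either side). The shares were 4.13% against 3.17% for 9M-Reg (5.37% on either side), 3.26% against 2.67% for 9M-Irreg (5.55%) and 13.1% against 7.97% for 15M-Acyc (11.2%).

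Across all genes, 10 separated the genotypes completely, with no overlap between the 7 libraries of each (0.0538% of genes tested), 6 lower (0.0323%) and 4 higher (0.0215%) in APOE4. Cc2d1b, which codes for a C2-domain protein of membrane remodelling, lay between 29.9 and 33.6 CPM in APOE4 and between 34.3 and 37.7 CPM in APOE3 (log2 fold change -0.17, SE 0.04, adjusted p = 0.588). With the length-aware normalization factors of the deposited tables as offsets in edgeR, Cc2d1b had a log2 fold change of -0.38 and an adjusted p of 0.00153. In limma on log2 of the normalized counts plus 1 it had -0.38 and an adjusted p of 0.00158. Rn7s1, the RNA of the signal recognition particle, which is not polyadenylated, was 3.47 to 4.77 CPM in APOE4 and 5.11 to 25.2 CPM in APOE3. Dcun1d1, a factor of neddylation, and Exo1, a DNA repair exonuclease, were also lower in every APOE4 library, as were Gm16216 and ENSMUSG00000074873. Those higher in every APOE4 library included Neo1, the receptor neogenin (102 to 109 CPM against 98.6 to 101), Nit2 and Taf6. In the main edgeR fit none of the 10 passed the adjusted threshold, and neither H2ac20 nor Ndn was among them.

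The genes next in rank did not pass it either. Abtb1, which codes for an ankyrin-repeat and BTB-domain protein, had the smallest unadjusted p after the called pair (log2 fold change -0.21, SE 0.05, adjusted p = 0.356). Among those higher in APOE4, Cr1l, a membrane regulator of complement, was 19.3 to 24.9 CPM in APOE4 and 16.3 to 20.4 CPM in APOE3 (log2 fold change 0.23, adjusted p = 0.770). Hexa, the alpha subunit of lysosomal beta-hexosaminidase, was 46.1 to 53.4 CPM in APOE4 and 31.3 to 51.1 CPM in APOE3, with 2 of 7 APOE4 libraries above every APOE3 library (log2 fold change 0.36, adjusted p = 0.975). Mpeg1, the macrophage pore-forming protein perforin-2, was 30.1 to 40.7 CPM against 25.4 to 32.7 CPM (log2 fold change 0.24, adjusted p = 0.975).

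The locus itself and the genes singled out for this model were measured next. Mouse Apoe counts were low in all libraries, 2.74 to 4.42 CPM in APOE4 and 2.07 to 4.97 CPM in APOE3, and they check nothing about the human alleles, which were not analysed here. Of 111 tested genes within 5 Mb of Apoe, 54 lay above 0, the median log2 fold change was -0.01, and none passed the adjusted threshold. Ppargc1a, the coactivator that drives mitochondrial biogenesis, had a log2 fold change of -0.07 with a 95% interval of -0.16 to 0.02. Nrf1, a transcription factor of nuclear genes for respiratory subunits, had -0.04 with an interval of -0.15 to 0.08. Aif1, which codes for the microglial protein IBA1, was 3.52 to 4.99 CPM in APOE4 and 2.41 to 4.69 CPM in APOE3, a log2 fold change of 0.22 with an interval of -0.03 to 0.46. None of these genes passed the test.

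The remaining genes were read as 64 lists of cell type markers and functions. In bulk tissue, fewer cells of a type and less RNA per cell cannot be told apart. H2ac20 and Ndn were the only list members past the adjusted threshold, so the lists are described by counts and medians, beside 50.8% of all genes above 0 and an overall median of 0.0016. Counts of members at an unadjusted p under 0.05 stand beside 2.25% of all genes higher and 2.7% lower.

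**Figure D4:**
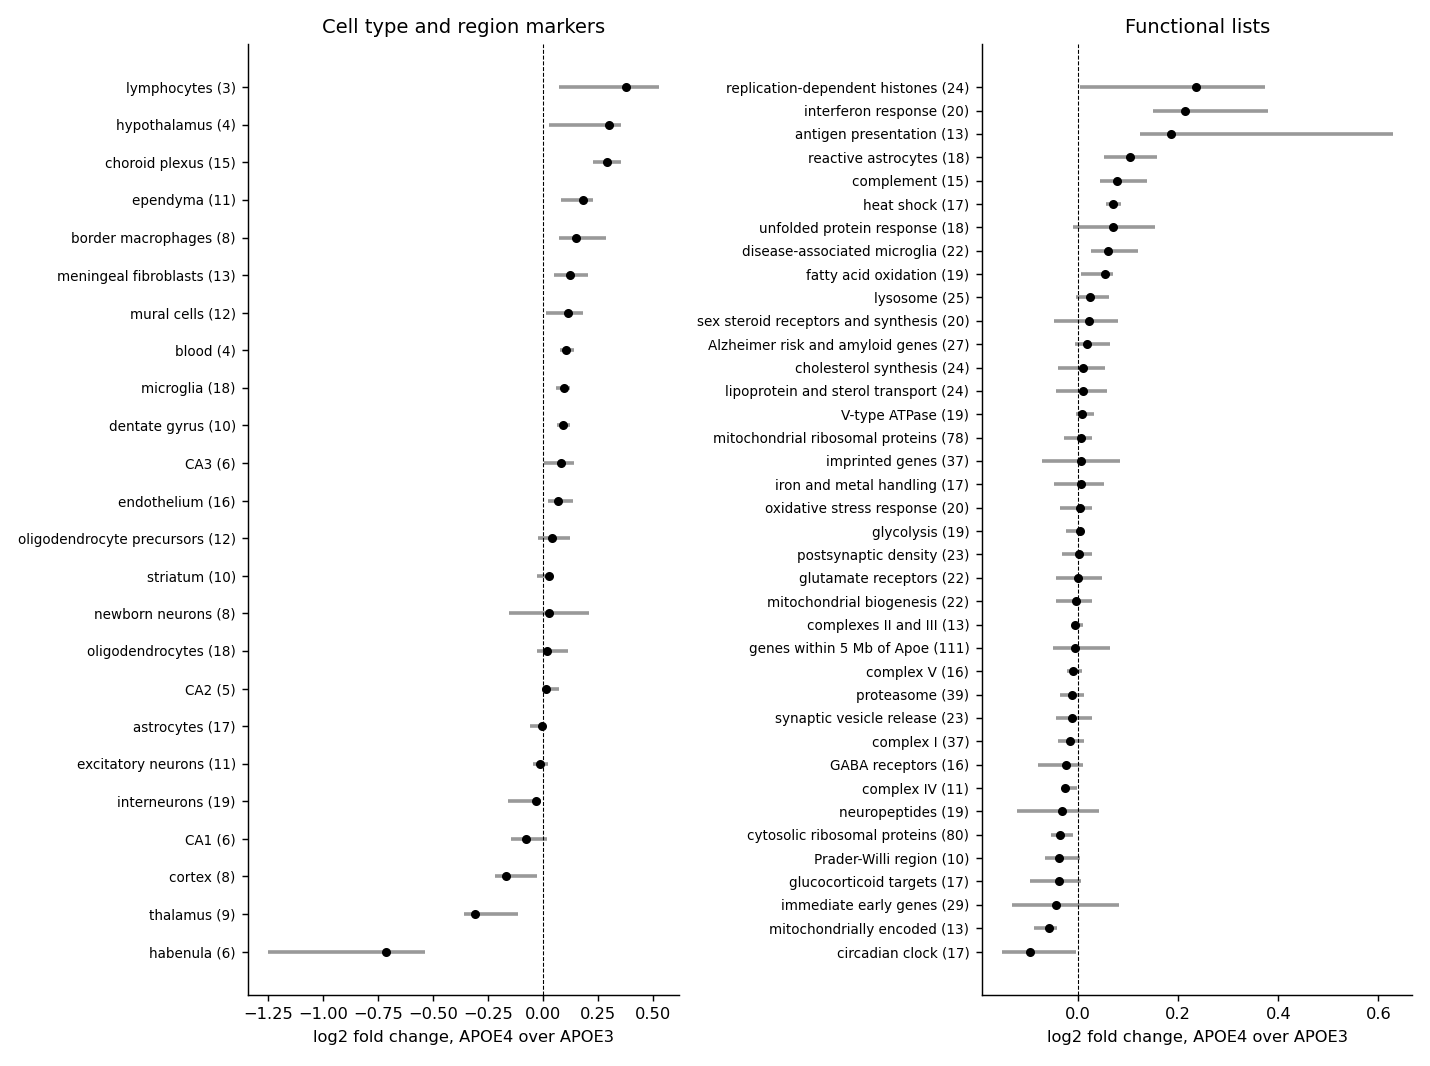
Median (points) and interquartile range (bars) of the log2 fold change of APOE4 over APOE3 at 15M-Irreg over the tested members of each list, with the number of members in parentheses; markers of cell types and regions are on the left and functions on the right. Pituitary and Y-linked lists are left out of the plot. Habenula and thalamus markers lie lowest and histone, interferon and antigen presentation genes lie highest among functions.

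Microglia are the resident macrophages of the brain. All 18 of their markers had a log2 fold change above 0, with a median of 0.09 and a highest value of 0.22, and 1, Itgam, had an unadjusted p under 0.05. Their summed level was 560 to 642 CPM in APOE4 and 511 to 602 CPM in APOE3, with medians of 590 and 562 CPM, so the ranges overlapped in part. Of the markers of other non-neuronal cells, 8 of 8 lay above 0 for border macrophages (median 0.15), 4 of 4 for blood (0.10), 10 of 11 for ependyma (0.18) and 11 of 13 for meningeal fibroblasts (0.12), against 7 of 17 for astrocytes and 11 of 18 for oligodendrocytes (0.02). Endothelial markers had 12 of 16 above 0 (median 0.07) and mural cell markers 9 of 12 (0.11). The part of these cell types in the microglial values was not tested. When each library was left out, the endothelial median was 0.04 to 0.09 and that of mural cells 0.04 to 0.14. That of border macrophages ran from -0.0057 (without APOE4 replicate 1) to 0.40 (without APOE3 replicate 7). The range was 0.04 to 0.18 for blood and 0.08 to 0.26 for ependyma. That of meningeal fibroblasts ran from -0.07 without APOE4 replicate 2 to 0.34 without APOE3 replicate 7, and was also below 0 without replicate 1 of either genotype. That of microglia stayed between 0.07 and 0.11. The summed levels overlapped between genotypes, at 19.1 to 34.9 CPM in APOE3 and 20.2 to 32.9 CPM in APOE4 for border macrophages, and 42.3 to 66.3 CPM and 40.9 to 80.1 CPM for ependyma. They were 97.3 to 156 CPM and 101 to 156 CPM for blood, and 396 to 1557 CPM and 425 to 1525 CPM for meningeal fibroblasts. Itgam, the alpha subunit of complement receptor 3, was 19.1 to 24.5 CPM in APOE4 and 15.2 to 20.8 CPM in APOE3 (log2 fold change 0.20, SE 0.09, adjusted p = 0.975). C1qc, a chain of the complement initiator C1q, had 0.12 (SE 0.06), and P2ry12, a purinergic receptor of homeostatic microglia, had 0.12 (SE 0.08). Genes of the disease-associated state, which microglia take on around amyloid, had 18 of 22 members above 0 and a median of 0.06 (0.03 to 0.09 when each library was left out). Within them Itgax, an integrin of that state, had 0.66 (SE 0.33), which was 0.35 without APOE4 replicate 4, whereas Axl, a receptor for apoptotic cells, had -0.09 (SE 0.05).

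Interferon-response genes had 19 of 20 members above 0 and a median log2 fold change of 0.21, and genes of antigen presentation 12 of 13 and 0.19. No member of either list had an unadjusted p under 0.05. Bst2, which tethers budding virions, had 0.53 (SE 0.37), and Oasl2 had 0.40 (SE 0.30). Of the major histocompatibility class II genes and their chaperone, H2-Ab1 had 0.87 (SE 0.51) and Cd74 had 0.86 (SE 0.52), and Nlrc5, the activator of class I genes, had 0.64 (SE 0.32).

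In these lists 1 library stood apart. The summed level of antigen presentation genes in APOE4 was 173 to 335 CPM, with the highest value in replicate 4 and a median of 189 CPM, below the APOE3 median of 199 CPM (range 167 to 214). Interferon-response genes summed to 176 CPM in the same library, against 102 to 151 CPM in the other APOE4 libraries and 100 to 143 CPM in APOE3. Without APOE4 replicate 4, 8 of 13 antigen presentation genes lay above 0 with a median of 0.04, 16 of 20 interferon-response genes with a median of 0.12, and 17 of 18 microglial markers with a median of 0.08. The single genes moved with it: Nlrc5 was then at 0.04 (SE 0.28), Oasl2 at 0.13 (SE 0.31), Cd74 at 0.37 (SE 0.53), H2-Ab1 at 0.47 (SE 0.53) and Bst2 at 0.40 (SE 0.38).

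Complement genes had 13 of 15 members above 0 and a median of 0.08, which was 0.03 without APOE3 replicate 1 and 0.15 without APOE3 replicate 7. C4b, the mouse form of complement C4 made in brain by astrocytes and oligodendrocytes, had 0.18 (SE 0.11), and 0.08 (SE 0.11) without APOE4 replicate 4. Genes of reactive astrocytes had 16 of 18 above 0 and a median of 0.10 (0.05 without APOE4 replicate 1), with Gfap, their intermediate filament protein, at 0.06 (SE 0.06) and Vim at 0.15 (SE 0.10). When each library was left out, Gfap was at 0.03 to 0.10 and Vim at 0.09 to 0.20. Markers of astrocytes as a cell type had 7 of 17 above 0 and a median of -0.0026. Among these, Slc1a2, the main glutamate transporter, had -0.12 (SE 0.05) and Sox9, a glial transcription factor, had -0.23 (SE 0.10). These 2 of 17 were the members at an unadjusted p under 0.05, beside 2.7% of all genes lower, and without APOE3 replicate 1 or APOE4 replicate 3 the count was 0.

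Genes of protein folding were mostly above 0. All 17 heat shock genes had a log2 fold change above 0, with a median of 0.07. Hspa8, the constitutive cytosolic Hsp70, was 1773 to 1951 CPM in APOE4 and 1546 to 1994 CPM in APOE3, with none of the APOE4 libraries above all APOE3 libraries (log2 fold change 0.10, SE 0.05), and Hsph1, its exchange factor, had 0.12 (SE 0.06). Of 18 genes of the unfolded protein response, which adjusts folding capacity in the endoplasmic reticulum, 13 lay above 0 with a median of 0.07, and 3 of the 18 had an unadjusted p under 0.05, all higher, beside 2.25% of all genes. These were Hspa5, the chaperone BiP (0.20, SE 0.10), Hsp90b1, the chaperone GRP94 (0.14, SE 0.07), and Manf (0.16, SE 0.07). Without APOE4 replicate 4 no member of either list had an unadjusted p under 0.05, and the medians were 0.06 for heat shock and 0.05 for the unfolded protein response. Without APOE3 replicate 2 the count was also 0 in both lists, with medians of 0.07 and 0.06. The counts were not lower in every setting. With APOE3 replicates 2 and 3 and APOE4 replicate 6 left out together they were 5 of 17 for heat shock and 4 of 18 for the unfolded protein response, beside 2.5% of all genes, and with choroid plexus level as a covariate 2 and 5, beside 3.07%.

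Cytosolic ribosomal protein genes had 9 of 80 members above 0 and a median of -0.04, and 10 of the 80 had an unadjusted p under 0.05, all lower in APOE4, beside 2.7% of all genes. Rpl30 was 116 to 122 CPM in APOE4 and 118 to 129 CPM in APOE3 (log2 fold change -0.07, SE 0.03), and Rpl12 had -0.13 (SE 0.05). The whole list ran from -0.13 to 0.07. Many of these genes have processed copies elsewhere in the genome, among which reads can be shared. Without APOE3 replicates 2 and 3 and APOE4 replicate 6, 23 of 80 members lay above 0, the median was -0.02, and 1 gene had an unadjusted p under 0.05, beside 2.96% of all genes lower at that p.

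Genes of energy metabolism had medians near 0. Complex I had 13 of 37 members above 0 and a median of -0.02, complex IV 2 of 11 and -0.03, and complex V 7 of 16 and -0.01. Without APOE3 replicates 2 and 3 and APOE4 replicate 6 the signs turned, with 20 of 37 above 0 for complex I (median 0.0031), 6 of 11 for complex IV (0.0046) and 11 of 16 for complex V (0.02). Single members with an unadjusted p under 0.05 were Ndufs4 of complex I (-0.08, SE 0.04) and Atp5g2 of complex V (0.32, SE 0.14). Of the 13 mitochondrially encoded genes, 12 lay below 0 and the median was -0.06. mt-Nd6, the single coding gene of the light strand, was 31.9 to 61.8 CPM in APOE4 and 42.8 to 63.3 CPM in APOE3 (log2 fold change -0.34, SE 0.14). The share of all counts from mitochondrially encoded genes was 6.49 ± 0.316% (SD, n = 7) in APOE4 and 6.72 ± 0.239% in APOE3, a difference that missed the threshold in a two-sided exact permutation test (p = 0.140). Fatty acid oxidation genes had 16 of 19 above 0 and a median of 0.05 (0.01 without APOE4 replicate 1), and glycolysis genes 10 of 19 and 0.00.

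Lipid genes, the field in which apolipoprotein E acts, had no member past the adjusted threshold. Cholesterol synthesis had 12 of 24 members above 0 and a median of 0.01, and lipoprotein and sterol transport 14 of 24 and 0.01. Lrp8, an apolipoprotein E receptor of neurons, had 0.09 (SE 0.05), and Insig1, which holds back cholesterol synthesis, had -0.21 (SE 0.13). Sex steroid receptors and enzymes had 14 of 20 above 0 and a median of 0.02. Gper1, the membrane estrogen receptor, was 1.98 to 3.33 CPM in APOE4 and 1.68 to 2.57 CPM in APOE3 (log2 fold change 0.34, SE 0.15, adjusted p = 0.975).

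Levels of neuronal and myelin markers overlapped between genotypes. Excitatory neuron markers summed to 9485 to 11777 CPM in APOE4 and 10109 to 11322 CPM in APOE3, and oligodendrocyte markers to 5936 to 8192 CPM and 6065 to 7403 CPM. Their median log2 fold changes were -0.01 and 0.02. Interneuron markers had 4 of 19 above 0 and a median of -0.03. When each library was left out, 3 to 7 lay above 0 and the median was -0.06 to -0.02. Pvalb, which marks fast-spiking interneurons, was 28.9 to 36.7 CPM in APOE4 and 31.04 to 43.5 CPM in APOE3 (log2 fold change -0.21, SE 0.08, adjusted p = 0.975). Glutamate receptors had 11 of 22 members above 0 and a median of 0.00. Nlgn3, a postsynaptic adhesion protein, was the 1 gene of the postsynaptic density past an unadjusted p of 0.05, at -0.15 on the log2 scale (SE 0.05, adjusted p = 0.975).

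Markers of tissue next to the hippocampus varied widely between libraries of both genotypes. Choroid plexus markers summed to 52.9 to 4821 CPM in APOE3 and to 31.3 to 5195 CPM in APOE4, with medians of 2225 and 4019 CPM. They were at or below 258 CPM in APOE3 replicates 1 and 6 and in APOE4 replicates 5, 6 and 7. All 15 had a log2 fold change above 0, with a median of 0.29, but the direction turned with the scale: in limma on log values 6 of 15 lay above 0 and the median was -0.34. When each library was left out the median was 0.05 (without APOE4 replicate 1) to 0.59 (without APOE3 replicate 7). With this level as a covariate the list medians were 0.10 for microglia, 0.21 for interferon response and 0.18 for antigen presentation. Members at an unadjusted p under 0.05, all higher, were then 1 of 20 for interferon response and 3 of 13 for antigen presentation, beside 3.07% of all genes in that fit. Their part in the gene lists was not otherwise tested. The called genes were then 3, with Ccdc170 added (log2 fold change 0.89).

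Thalamus markers summed to 125 to 253 CPM in APOE3, the highest in replicate 2, against 124 to 151 CPM in APOE4. Of the 9 tested, 5 had an unadjusted p under 0.05, all lower in APOE4, beside 2.7% of all genes. Shox2, a thalamic transcription factor, was 7.497 CPM in APOE3 replicate 2 and at most 0.386 CPM in the other APOE3 libraries, and its log2 fold change of -1.96 became 0.71 without that library. Habenula markers summed to 23.4 CPM in APOE3 replicate 3 and 4.65 to 6.50 CPM in the other APOE3 libraries, against 3.86 to 5.70 CPM in APOE4. Without APOE3 replicate 2 no thalamus marker had an unadjusted p under 0.05 and the median was -0.04 instead of -0.31, and without APOE3 replicate 3 the habenula median was -0.04 instead of -0.71. Pituitary markers summed to 31.4 CPM in APOE4 replicate 6 and to 1.72 to 4.67 CPM in the other APOE4 libraries. Cortex markers had 1 of 8 above 0 and a median of -0.17, and 0 had an unadjusted p under 0.05. Their sums overlapped, at 303 to 364 CPM in APOE3 and 287 to 344 CPM in APOE4. The cortex median was -0.16 without APOE3 replicate 2, -0.13 without APOE3 replicate 3 and -0.10 without APOE4 replicate 6.

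**Figure D5:**
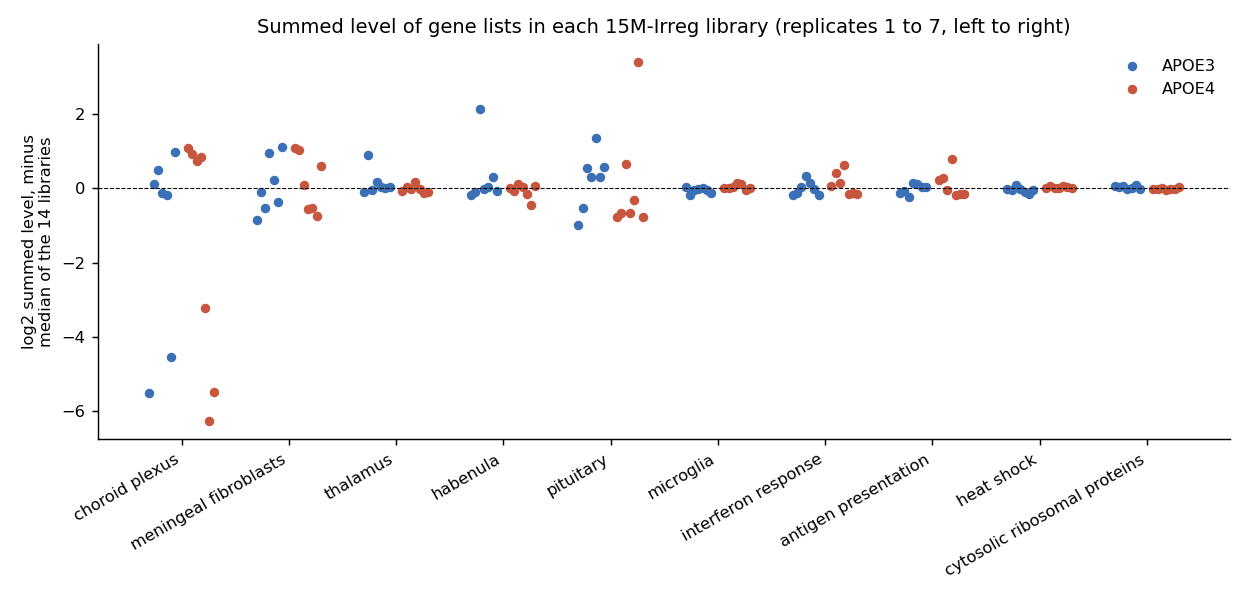
Summed level of each gene list in the 14 libraries of 15M-Irreg on a log2 scale, minus the median of the 14; APOE3 is in blue and APOE4 in red, with replicates 1 to 7 from left to right. Choroid plexus spans the widest range in both genotypes, and single libraries stand apart for thalamus (APOE3 replicate 2), habenula (APOE3 replicate 3), pituitary (APOE4 replicate 6) and antigen presentation (APOE4 replicate 4).

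The library totals were 22.9 to 28.4 M counts (M, 1e6) in APOE3 and 22.8 to 29.995 M in APOE4 (two-sided exact permutation test, p = 0.456). Hippocampal subfield markers were present in every library, with dentate gyrus markers summing to 455 to 610 CPM in APOE3 and 475 to 594 CPM in APOE4. None of 42 pairs of libraries within a group held the same values.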

How the data were processed

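Hippocampal poly(A) RNA was sequenced as stranded 150-base read pairs. Per the study's methods, the authors estimated transcript abundance with Salmon 0.15.0 against mouse cDNA of Ensembl release 95 and summed it per gene with tximport. The deposited files used here are the unnormalized table of estimated counts, which are whole numbers, a table of normalized counts (signal), in which the authors divided each estimated count by a DESeq2 factor per gene and library, and transcript files with TPM and estimated reads. Human APOE sequence is not part of that reference.

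The genes that reached 10 counts in 3 or more of 59 libraries (18584 of 24439) were fitted in edgeR 4.0.16 with TMM factors, quasi-likelihood, 1 coefficient for each of 10 groups and two-sided tests adjusted by Benjamini-Hochberg. CPM were taken over the TMM-scaled library size. Standard errors come from the fitted coefficient and its F statistic, and 95% intervals are the estimate ± 1.96 SE. A gene at or below 3 counts in every library of a group was given a bound in place of a fold. Depth was 22.8 to 29.995 M counts per library (M, 1e6) in the 14 libraries compared, and intervals cover the spread between libraries, not ambiguity in assigning reads. The edgeR test was also run on simulated counts, drawn independently, in which no gene as low as H2ac20 was changed. Nor did the simulated counts put libraries of a group at separate levels, as for Ndn in APOE3. The simulation therefore cannot speak to either call. Members and lists were chosen with earlier results of these data known. By the rule for named genes, the genes that could be named were those past an adjusted p of 0.05, the 12 with the smallest p in each direction, members of a list with an unadjusted p under 0.05 or failing any the one with the smallest, defining markers, and Apoe, Ppargc1a, Nrf1 and Aif1. Not all are named: the text describes a selection of lists and, in each, examples. Genes named for not overlapping between groups, and other list members given as examples, were chosen after their values were seen. Gene positions are from GENCODE M21 (GRCm38), to which 270 table entries could not be matched. Alternatives used RLE factors, DESeq2 1.42.0, the authors' normalization factors as offsets, limma 3.58.1 on log2 of normalized counts plus 1, other filters, the 14 libraries alone and each library left out. Single results for a few genes are not reported here, though counts and medians over lists include them.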

Additional observations from a re-analysis of the deposited data

Results flagged for a closer look

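In 29 of 332 groups of 7 libraries examined (8.73%), 1 library lay further from the others than Dixon's criterion at 95% allows. Most groups were named genes, many picked by their p in these same libraries, and others were marker sums that hold some of those genes. The groups are thus neither unselected nor independent. Their share cannot be set against the 1 in 20 that the criterion allows by chance. No explanation was tested for any of them.

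APOE3 replicate 2 was highest for the summed thalamus markers (253 CPM, others 125 to 151) and for Shox2 (7.497 CPM, others up to 0.386), Ramp3 (10.8 CPM, others up to 5.55), Tcf7l2 (9.45 CPM, others up to 3.37), Slc17a6 (44.9 CPM, others up to 28.5) and Plekhg1 (32.4 CPM, others up to 20.03). APOE3 replicate 3 was highest for the summed habenula markers (23.4 CPM, others up to 6.50), Chat (1.23 CPM, others up to 0.214) and Tac2 (7.61 CPM, others up to 3.82). APOE3 replicate 7 was highest for Exo1 (1.03 CPM), Trh (3.41 CPM), Dcun1d1 (46.1 CPM) and Lyve1 (1.17 CPM). Rn7s1 was highest in APOE3 replicate 6 (25.2 CPM, others up to 11.9) and the lymphocyte markers in APOE3 replicate 5 (2.91 CPM). APOE3 replicate 4 had the lowest total, 22.9 M counts against 26.8 to 28.4 M.

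APOE4 replicate 4 was highest for Nlrc5 (5.75 CPM, others up to 1.82), Itgax (1.75 CPM, others up to 0.975), Itgam (24.5 CPM, others up to 20.9995) and Mpeg1 (40.7 CPM, others up to 33.9). ENSMUSG00000078087 was also flagged there, at 0.125 CPM with the others at 0, but that value is only 3 counts in this library. APOE4 replicate 4 was also highest for the summed antigen presentation genes (335 CPM, others 173 to 237). APOE4 replicate 6 was highest for the pituitary markers (31.4 CPM, others up to 4.67) and Prdx6 (165 CPM, others up to 158). APOE4 replicate 7 was highest for Axl (47.3 CPM) and Tac2 (3.45 CPM). Ramp3 was highest in APOE4 replicate 1 (5.53 CPM), Ggta1 in replicate 3 (7.60 CPM) and the CA2 markers in replicate 5 (185 CPM).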

How the results depend on the processing

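No paired analysis was possible because the labels pair no libraries across genotypes and the replicate numbers only name samples. Of 139 genes followed, 120 were fitted under all 23 alternatives and 19 under 22, and 136 kept their direction in all that were run. The exceptions were Shox2, Nrf1 and Esr1. The alternatives were 14 that leave out 1 library, 7 other settings and 2 chosen after seeing the data (3 libraries left out together, and choroid plexus level as a covariate). The number of genes called was 1 with at least 10 counts in every library, with the 14 libraries alone and with the 3 libraries left out, 3 with the authors' factors as offsets or the choroid plexus covariate, and 1 to 2 when each library was left out. Genes at an unadjusted p under 0.05 numbered 735 to 1248 when each library was left out and 766 to 1307 otherwise. Ndn missed the adjusted threshold with limma (-0.60) and with the 14 libraries alone (-0.65), and ranged from -0.73 to -0.59 when each library was left out. H2ac20 missed it with the 3 libraries left out (fitted log2 value 5.40). The genotype difference at 15M-Irreg against that at 9M-Irreg gave 1 gene with the offsets and 1 with limma. The difference in the share of counts from mitochondrially encoded genes was -0.316 to -0.168 percentage points when each library was left out, with an exact permutation p of 0.0466 without APOE4 replicate 7. The causes were not tested. Of 64 lists, 34 kept the sign of their median throughout, and low genes such as H2ac20 are limited by their counts.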

Other observations

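Genes of the circadian clock had 4 of 17 members above 0 and a median log2 fold change of -0.10. Ciart, a repressor of the clock, was 7.66 to 10.1 CPM in APOE4 and 8.88 to 16.4 CPM in APOE3, with 6 of 7 APOE4 libraries below every APOE3 library (log2 fold change -0.52, SE 0.18). Nr1d1, the nuclear receptor REV-ERB alpha, had -0.24 (SE 0.09) and Dbp, a clock output factor, had -0.34 (SE 0.14). None of these genes passed the adjusted threshold in edgeR's quasi-likelihood test with Benjamini-Hochberg adjustment, each at an adjusted p of 0.975, and hours of tissue collection were not analysed here.

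Of 24 tested genes for replication-dependent histones, whose messengers mostly lack a poly(A) tail, 18 lay above 0 with a median of 0.23. Beside H2ac20, H4c12 was 0.375 to 1.244 CPM in APOE4 and 0.284 to 0.772 CPM in APOE3 (log2 fold change 0.79, SE 0.28), and H3c4 had 0.88 (SE 0.37), neither past the adjusted threshold.

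Actb, which codes for beta-actin and was chosen after its value was seen because it often serves as a reference gene, was 644 ± 47.2 CPM (SD, n = 7) in APOE4 and 717 ± 46.4 CPM in APOE3 (log2 fold change -0.16, SE 0.05, adjusted p = 0.975, edgeR).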
